A study of Mus musculus with 18 samples.

Results

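The complement and coagulation genes were 43 genes of the plasma cascades of innate immunity and blood clotting. They were found by gene symbol in the annotation of the array, which held 40 of them among 15095 named genes, each on 1 spot. C3, C8a and Cfd were not analysed here. DBA/2J and C57BL/6J mice, both inbred strains, were compared in RNA of 3 whole organs, brain, kidney and liver, on 18 glass arrays, 6 for each organ. Every array carried a pool of DBA/2J RNA and a pool of C57BL/6J RNA in different dyes. A pool combined 10 mice of a strain for brain or kidney and 9 mice for liver, and the 6 arrays of an organ were repeats with 1 pool per strain. The p-values therefore measure the spread between hybridisations, not between mice, and no treatment, age or sex was given in the labels. Each value is the log2 ratio of DBA/2J over C57BL/6J, so that a positive value means a higher signal in DBA/2J. This direction is likely, since it rests on the order in which the labels list the strains and dyes. No dyes were swapped, and a dye effect of a spot cannot be told apart from a difference between the strains.

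Complement is a chain of plasma proteins that marks and kills microbes. It starts at antibodies (C1q, C4, C2), at sugars (mannose-binding lectins and their proteases, MASPs) or through its own amplification loop (factor B, properdin), and ends in a pore built from C5b, C6, C7, C8 and C9. Coagulation is a parallel chain of serine proteases and cofactors that ends with thrombin cutting fibrinogen into fibrin, held back by anticoagulants and undone by plasmin. Hepatocytes make most of these proteins, while C1q comes mainly from macrophages and, in brain, from microglia. Hc encodes C5, and DBA/2J is known to carry a frame-shifting deletion in it that leaves the strain without C5 in serum, whereas C57BL/6J has an intact allele. The comparison asked whether the other members followed Hc.

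Of the 5 pore-forming genes among the members, 4 differed between the strains in liver, but not in a single direction. The share of all features that passed there was 23.1%. Hc and C8b were lower in DBA/2J liver, C6 and C9 were higher, and C8g did not pass the test. The 250 bases before the start of each of the 4 genes that passed are shown from RefSeq (mouse build GRCm38.p6, which is the C57BL/6J sequence), because they hold matches to motifs of liver transcription factors. Capitals mark a match on either strand to GTTAAT, a half-site of HNF1, in Hc and C8b, and to TTNNGNAAT, a C/EBP motif, in C6 and C9.
Hc, chr2:35061413-35061662, minus strand: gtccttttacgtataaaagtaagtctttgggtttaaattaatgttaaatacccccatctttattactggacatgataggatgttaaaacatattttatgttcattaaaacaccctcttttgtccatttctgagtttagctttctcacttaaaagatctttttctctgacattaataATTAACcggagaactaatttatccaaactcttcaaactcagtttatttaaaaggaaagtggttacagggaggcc
C6, chr15:4726960-4727209, plus strand: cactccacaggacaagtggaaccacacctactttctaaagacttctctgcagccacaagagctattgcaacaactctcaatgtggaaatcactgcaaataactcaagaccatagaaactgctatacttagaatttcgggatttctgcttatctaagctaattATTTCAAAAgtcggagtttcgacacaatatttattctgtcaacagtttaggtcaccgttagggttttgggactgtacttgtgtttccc
C8b, chr4:104766067-104766316, plus strand: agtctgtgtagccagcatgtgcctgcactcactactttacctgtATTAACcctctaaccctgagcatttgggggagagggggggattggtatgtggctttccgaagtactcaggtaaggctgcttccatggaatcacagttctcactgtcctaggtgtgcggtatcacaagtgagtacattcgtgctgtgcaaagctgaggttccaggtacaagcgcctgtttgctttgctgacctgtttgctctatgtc
C9, chr15:6445096-6445345, plus strand: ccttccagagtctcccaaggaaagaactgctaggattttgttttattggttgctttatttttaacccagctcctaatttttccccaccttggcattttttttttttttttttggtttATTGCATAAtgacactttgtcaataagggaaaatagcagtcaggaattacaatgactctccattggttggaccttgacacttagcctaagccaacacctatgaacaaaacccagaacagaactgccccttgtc
Over windows of 300 bases, 250 before and 50 after each start, and both strands, GTTAAT was found in 8 of the 30 members with a promoter in the reference (26.7%) and in 7.20% of 27025 promoters. TTNNGNAAT was found in 7 of the 30 (23.3%) and in 11.6% of all promoters. The STAT motif TTCNNNGAA was found in 5 members (16.7%) against 8.47% of all promoters, and the TATA motif TATAAA in 3 (10.0%) against 14.2%. Some windows held more than 1 motif, as Hc held GTTAAT, TTNNGNAAT and TATAAA. The letters are a description of the reference sequence, and the DBA/2J sequence was not analysed here.

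The members were mostly liver genes on these arrays. Spot intensity was expressed as its percentile among the 21765 spots used in the tissue, where intensity stands for both strains together. The member spot was brightest in liver for 34 of 40 members (85%), compared with 31.5% of all spots. The median percentile of the members was 92.2 in liver but 29.9 in brain and 49.2 in kidney. Above the percentile of 80 lay 33 members in liver, 7 in kidney and 4 in brain. Among the dimmest 7255 spots of the tissue were 21 members in brain and 14 in kidney, and none in liver. Fibrinogen alpha chain, Fga, stood at percentile 10.8 in brain, 41.8 in kidney and 98.8 in liver, and factor V, F5, a cofactor of thrombin formation, at 0.813, 19.2 and 89.3. Hc stood at 7.94, 9.97 and 77.1, so its ratio in brain and kidney was measured on a dim spot. The exceptions were C1qa, C1qb, the C1 inhibitor Serping1 and tissue factor F3, brightest in brain, and C1qc and properdin Cfp, brightest in kidney. C1qa stood at percentile 98.6 in brain, 43.3 in liver and 14.2 in kidney. The tissue labels were checked against defining markers in the same way: 6 of 7 hepatocyte genes were brightest in liver, 4 of 4 brain genes in brain and 3 of 4 kidney genes in kidney, where Hnf4a was brightest in kidney and Aqp2 in liver.

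**Figure D1:**
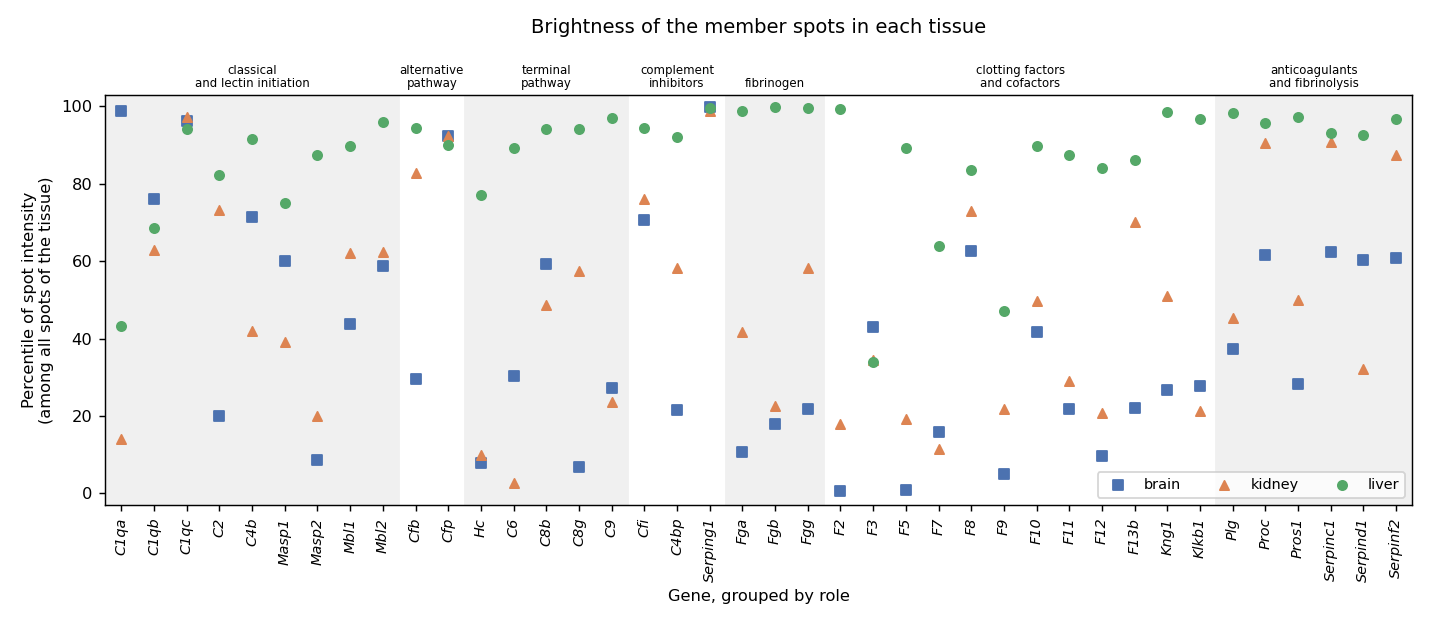
Percentile of spot intensity among all spots of the tissue (vertical axis, 0 to 100) for the 40 members in brain (squares), kidney (triangles) and liver (circles), ordered by role. Most liver points lie near the top, with a median percentile of 92.2, and C1qa is the clearest exception, at 98.6 in brain.

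The arrays were not equally alike. Across features, ratios of pairs of arrays had a mean correlation of 0.624 in kidney, 0.476 in liver and 0.385 in brain. Brain array 1 (mean correlation with the others 0.243), liver array 2 (0.353) and liver array 5 (0.412) stood apart from their groups, and liver array 2 was also the dimmest of the 18 by median intensity. The ratios were corrected for their dependence on intensity (print-tip loess), which was strongest in kidney, where the correlation of ratio with intensity reached 0.712. Across 902 genes with 2 spots, the mean ratios of both spots correlated by 0.103 in kidney, 0.073 in brain and 0.028 in liver. Since each member had 1 spot, its ratio has no second measurement on the array, and the names were not tested against spot sequences.

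In liver, 15 of 40 members passed the test (limma, Benjamini-Hochberg adjusted p under 0.05 over 20218 features), 5 higher and 10 lower in DBA/2J. Of all features 23.1% passed, 10.8% higher and 12.2% lower, and of the 13478 brighter features, 25.5% passed. The median log2 ratio of the members was -0.03, and without Hc 14 of 39 passed, 5 higher and 9 lower. With a mean of at least 0.40 in size 4 members passed, against 6.47% of all features. In bulk tissue, fewer cells of a type and less RNA per cell cannot be told apart.

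Hc was the member with the lowest ratio in liver. The 6 arrays gave -1.24, -0.15, -1.39, -1.44, -0.88 and -1.40, so that all were below 0 and array 2 alone was near it. The mean was -1.09 ± 0.50 (SD, n = 6), a 2.12-fold lower signal in DBA/2J (limma, adjusted p = 0.000436). Without array 2 the mean was -1.27, and without arrays 2 and 5 it was -1.37. Kidney gave lowest, median and highest values of -0.35, -0.25 and -0.13 with a mean of -0.24 ± 0.08 (adjusted p = 0.00779). In brain the values ran from -0.42 through a median of -0.20 to 0.04, with a mean of -0.22 ± 0.17 that did not pass (adjusted p = 0.0788). The size in the dim tissues depended on the correction for intensity: without loess the means were -0.71 in brain and -0.98 in kidney, against -1.19 in liver. With the correction Hc was lower in liver than in brain by a difference of 0.87 ± 0.16 (SE, adjusted p = 0.000752) and than in kidney by 0.84 ± 0.16 (adjusted p = 0.000473). Without loess these differences were 0.48 and 0.21 and did not pass (adjusted p = 0.162 and 0.354).

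Of the partners of C5 in the pore, C8b shared its direction in liver, C6 and C9 had the opposite one, and C8g did not pass. C8b, the beta chain of C8, ran from -1.12 through -0.40 to -0.26 in liver, below 0 on all 6 arrays, with array 2 the lowest. Its mean was -0.55 ± 0.33 (limma, adjusted p = 0.00396), and it was -0.43 without array 2. C6, which binds C5b first, was above 0 on all 6 liver arrays, from 0.15 through 0.33 to 0.64, with a mean of 0.37 ± 0.18 (adjusted p = 0.00572). C9, which polymerises into the pore, was between 0.45 and 0.88 on 5 liver arrays and -0.43 on array 2. Its mean was 0.46 ± 0.46 (adjusted p = 0.0281), 0.64 without array 2, and the call was lost without any 1 of the other 5 arrays (adjusted p from 0.0658 to 0.0968). C8g, the gamma chain of C8, ran from -0.31 through -0.06 to 0.49 with 3 arrays on each side of 0 and a mean of -0.01 ± 0.29. Without liver arrays 2 and 5 together the means of Hc, C6, C8b and C9 kept their signs.

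**Figure D2:**
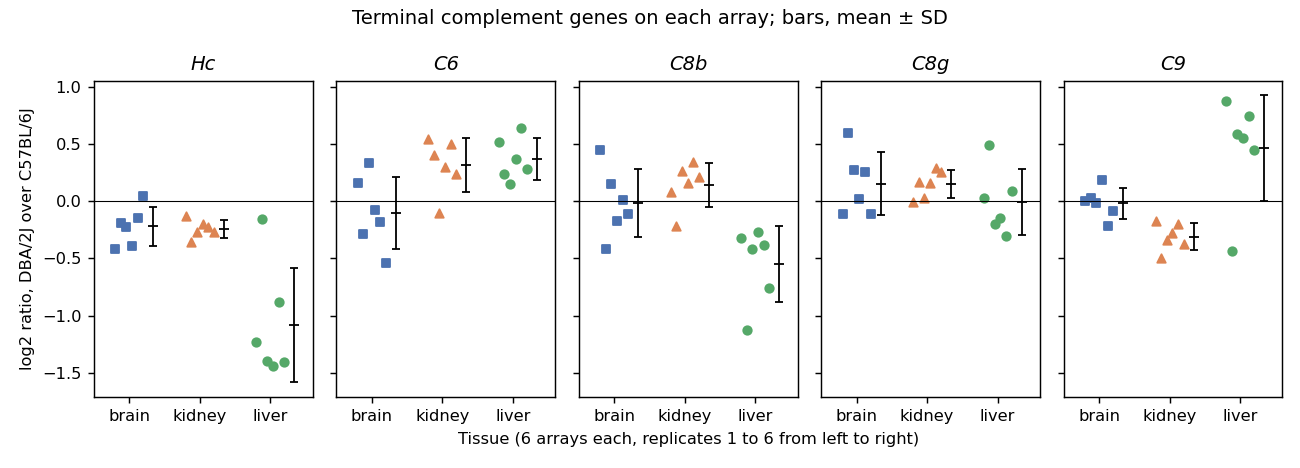
Log2 ratio of DBA/2J over C57BL/6J (vertical axis) on each of the 6 arrays per tissue for Hc, C6, C8b, C8g and C9, with bars for the mean and SD. In liver Hc and C8b lie below 0 and C6 above 0 on every array, and C9 lies above 0 on all but array 2, at -0.43.

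Outside liver, Hc, C8b and C9 had mean ratios smaller in size than in liver, and C8g passed in no tissue. In kidney C9 was lower in DBA/2J on all 6 arrays, from -0.49 through -0.31 to -0.17 (mean -0.31 ± 0.12, adjusted p = 0.00266), the opposite of its liver ratio, although with 1 loess per array its mean was -0.005 and did not pass. C6 in kidney had a mean of 0.31 ± 0.24 on a spot at percentile 2.77. Without loess the mean turned to -0.20, and with loess against unrestored intensity it fell to 0.0005 and did not pass. C8b ran from -0.21 to 0.35 in kidney, with a mean of 0.14 ± 0.20, and C8g had a mean of 0.15 ± 0.12, neither past the threshold. In brain the means of C6, C8b, C8g and C9 lay between -0.10 and 0.15 and did not pass. The largest tissue differences of these genes other than Hc were between kidney and liver, for C9 (-0.77 ± 0.15, SE, adjusted p = 0.000682) and C8b (0.69 ± 0.15, adjusted p = 0.00178), and both passed under every alternative run.

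Of the 9 genes that start the classical and lectin pathways, 3 were lower in DBA/2J liver and none was higher, against 12.2% and 10.8% of all features. The mannose-binding lectin Mbl1 had a mean of -0.28 ± 0.17, the lectin-pathway protease Masp2 -0.21 ± 0.11, and C1qa, a chain of C1q, -0.27 ± 0.23. The calls of C1qa, Mbl1 and Masp2 were lost under 4, 4 and 6 of 14 alternatives, with adjusted p up to 0.115, 0.0886 and 0.123. The other chains of C1q, C1qb and C1qc, had means of -0.05 and -0.04 and did not pass. Of 10 macrophage and microglia markers none passed in liver, with means from -0.18 to 0.12 and a median of -0.12. In the alternative pathway, factor B, Cfb, was lower on all 6 liver arrays, from -0.66 through -0.47 to -0.26, with a mean of -0.47 ± 0.14 (limma, adjusted p = 0.000859) that passed under every alternative run. Properdin, Cfp, had a mean of -0.17 ± 0.18 and did not pass. None of the 3 inhibitors passed in liver, where factor I, Cfi, had a mean of 0.04, C4bp 0.06 and Serping1 0.14.

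Among coagulation genes in liver, none of the 3 fibrinogen chains passed, with means of -0.04 for Fga, 0.16 for Fgb and -0.17 for Fgg. Of 12 clotting factors and cofactors, 4 were lower and 2 higher in DBA/2J, against 12.2% and 10.8% of all features. Factor IX, F9, was at -0.30 ± 0.15, factor XII, F12, which starts the contact pathway, at -0.32 ± 0.20 (not past without array 3, adjusted p = 0.0503), factor V, F5, at -0.26 ± 0.21 and factor VIII, F8, at -0.20 ± 0.11. Plasma kallikrein, Klkb1, was above 0 on all 6 arrays, from 0.10 through 0.35 to 0.58, with a mean of 0.35 ± 0.19 (adjusted p = 0.00835), and factor VII, F7, was at 0.21 ± 0.12. The calls of F9 and Klkb1 held under every alternative run, and those of F5, F7 and F8 were lost under 8, 9 and 7 of 14 alternatives. F11, factor XI, had a mean of -0.29 ± 1.24 that rested on array 5, at -2.78, while the other arrays ran from -0.02 to 0.49. Among anticoagulants and genes of fibrinolysis, plasminogen, Plg, was higher at 0.26 ± 0.22 (adjusted p = 0.0402), a call lost under 6 of 14 alternatives. Antithrombin, Serpinc1 (0.15), protein C, Proc (0.19), protein S, Pros1 (0.14), heparin cofactor II, Serpind1 (0.01), and antiplasmin, Serpinf2 (0.18), did not pass.

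**Figure D3:**
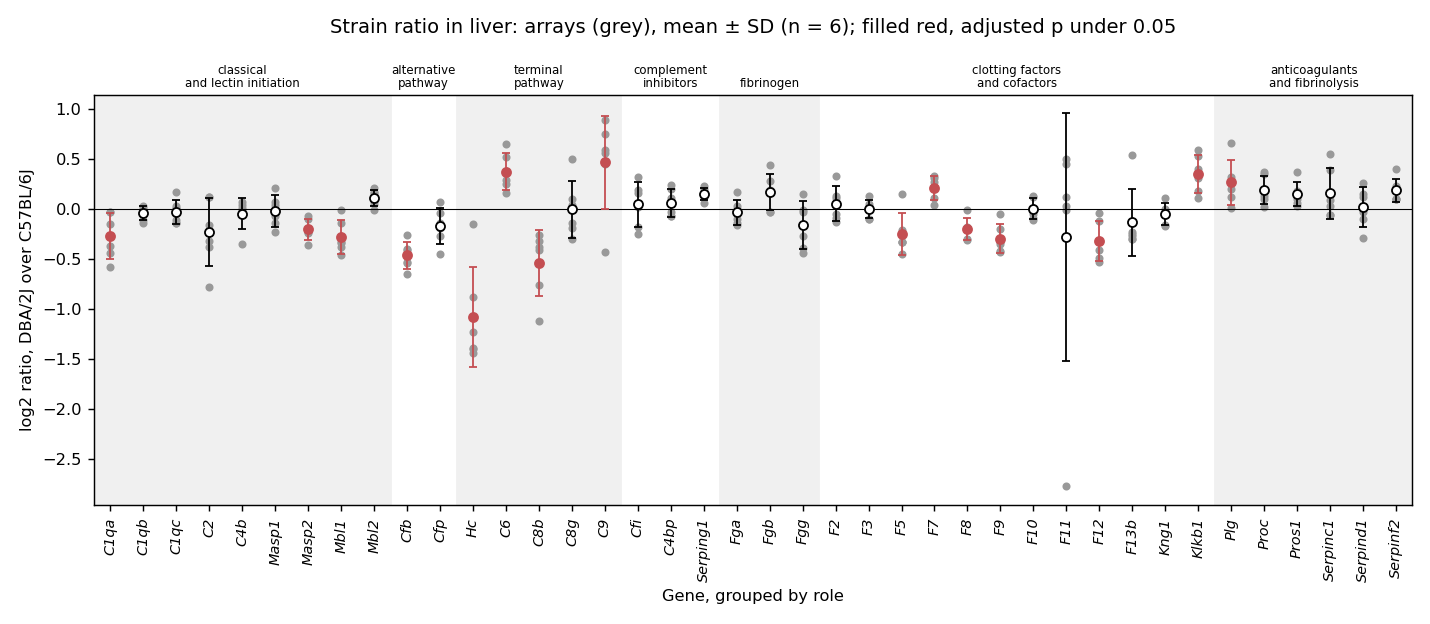
Log2 ratio of DBA/2J over C57BL/6J in liver (vertical axis) for the 40 members in order of role, with each of 6 arrays in grey and the mean ± SD, filled red where the adjusted p was under 0.05. Hc is lowest with a mean of -1.09, 5 members are red above 0 and 10 below, and F11 has 1 array at -2.78.

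These values in liver stood beside a shift in part of the hepatocyte markers. Of 7 hepatocyte genes 3 passed as lower in DBA/2J liver, Apob (-0.47), Cps1 (-0.44) and Hnf4a (-0.28), and none passed as higher. Alb (0.50), Serpina1a (0.32), Apoa1 (0.22) and Ttr (0.18) had means above 0 that did not pass, and the median of the 7 was 0.18. The shares of all features in liver were 12.2% lower and 10.8% higher. Among markers of other cell types, 2 of 3 adipocyte, 1 of 5 endothelial and 1 of 4 brain markers were higher in liver, and none of these was lower. Their part in the member ratios was not tested.

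In kidney, 19 of 40 members passed, 10 higher and 9 lower in DBA/2J, against 39.3% of all features, 19.7% higher and 19.6% lower. The median of the members was 0.04. The 4 members with a mean of at least 0.40 in size (11.7% of all features) were C4b, Cfi, Klkb1 and Mbl1. C4b, complement C4, was above 0 on all 6 kidney arrays, from 0.19 through 0.51 to 1.00, with a mean of 0.51 ± 0.28 (limma, adjusted p = 0.0007). That call was lost without loess (mean 0.07) and with 1 loess per array (0.22). Cfi, the protease that cuts C3b and C4b, ran from 0.15 through 0.38 to 0.85, with a mean of 0.46 ± 0.30 (adjusted p = 0.00208), and missed the threshold with 1 loess per array (adjusted p = 0.0566). Klkb1 ran from 0.24 through 0.36 to 0.65, with a mean of 0.43 ± 0.17 (adjusted p = 0.000505). Its call was lost without loess (0.14) and with loess against unrestored intensity (0.24). Mbl1 was below 0 on all 6 arrays, from -0.64 through -0.49 to -0.10, with a mean of -0.41 ± 0.22 (adjusted p = 0.00136). It passed under every alternative run, with limma adjusted p up to 0.0499.

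The other kidney calls were smaller and went both ways within most roles. Among initiators Mbl2 (0.33) and C2 (0.30) were higher. Among inhibitors Serping1 (0.26) was higher and C4bp (-0.27) lower. Among coagulation genes Fga (0.37), high-molecular-weight kininogen, Kng1 (0.36), and Serpinf2 (0.25) were higher, while Pros1 (-0.39), F9 (-0.34), Serpinc1 (-0.32), F11 (-0.30) and F2 (-0.18) were lower. The call of C4bp was lost without array 5, those of F9, F11 and Serpinf2 with 1 loess per array, and that of F2 under 7 of 12 alternatives, among them leaving out array 1, 2, 3, 5 or 6. Serpinc1 turned to 0.13 without loess. Fga fell to 0.06 there and was lost, as it was with 1 loess per array (0.21). Serping1 was lost with 1 loess per array (0.18) and with loess against unrestored intensity (0.27). Of 7 hepatocyte markers 3 were higher in DBA/2J kidney, Alb (0.75), Apoa1 (0.35) and Hnf4a (0.28), and 1 lower, Serpina1a (-1.74). The shares of all features in kidney were 19.7% higher and 19.6% lower. Of 4 kidney markers 2 were lower, Slc34a1 (-1.13) and Umod (-0.77), and none was higher. Other cell types had calls in both directions. Of 10 macrophage and microglia markers 1 was lower, Cd14 (-1.21), and of 2 red cell markers 1, Hba-a1 (-0.68), and none was higher. Of 5 endothelial markers Cdh5 (-0.40) was lower and Vwf (0.27) higher. Of 4 platelet markers 1 was higher and 1 lower, and of 3 adipocyte markers 2 were higher and none lower. Their part in the member ratios was not tested. Among the 13478 brighter features, 12 of 26 members passed, 8 higher and 4 lower, against 35% of these features, and without loess 27 of 40 passed, 11 higher and 16 lower, against 64.9% of all features.

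In brain 2 of 40 members passed, 1 higher and 1 lower, against 13.7% of all features, 7.39% higher and 6.28% lower. The median was -0.01, and 13% of the 13478 brighter features passed. Cfi was the higher one. It was above 0 on all 6 arrays, from 0.57 through 1.04 to 1.11, with a mean of 0.91 ± 0.25, a 1.88-fold higher signal in DBA/2J (limma, adjusted p = 0.000184). Its spot was at percentile 70.7, the mean stayed between 0.86 and 0.98 under all 13 alternatives, and of all features 5.43% passed with a mean of at least 0.40 in size. Mbl1 was the lower one, from -0.47 through -0.21 to -0.13, with a mean of -0.27 ± 0.15 (adjusted p = 0.0357), and was lost under 6 of 13 alternatives. C1qa had a mean of 0.31 ± 0.40 with arrays from -0.25 to 0.80 and did not pass (adjusted p = 0.105), and C1qb (-0.08) and C1qc (-0.11) lay on the other side of 0. Of 10 macrophage and microglia markers 1 passed in brain, Ctss, at -0.32. Plg (0.43 ± 0.46, adjusted p = 0.0538) and Kng1 (0.31 ± 0.28, adjusted p = 0.0515) missed the threshold.

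Set side by side, 28 of 40 members passed in at least 1 tissue and 12 in none, and of all features 55.3% passed in at least 1. Mbl1 was the 1 member that passed in all 3 tissues in a single direction, with a mean of -0.41 in kidney, -0.28 in liver and -0.27 in brain, and 2.83% of all features did so. With a single averaged value per tissue no member passed, but a test on 3 values has little power, and no conclusion is drawn from it. In both kidney and liver 6 members passed, 6 of the 19 called in kidney and 6 of the 15 called in liver, and 11.8% of all features passed in both. These counts over tissues are a description. Hc, Mbl1 and F9 were lower in both, C6 and Klkb1 higher in both, and C9 had opposite signs.

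**Figure D4:**
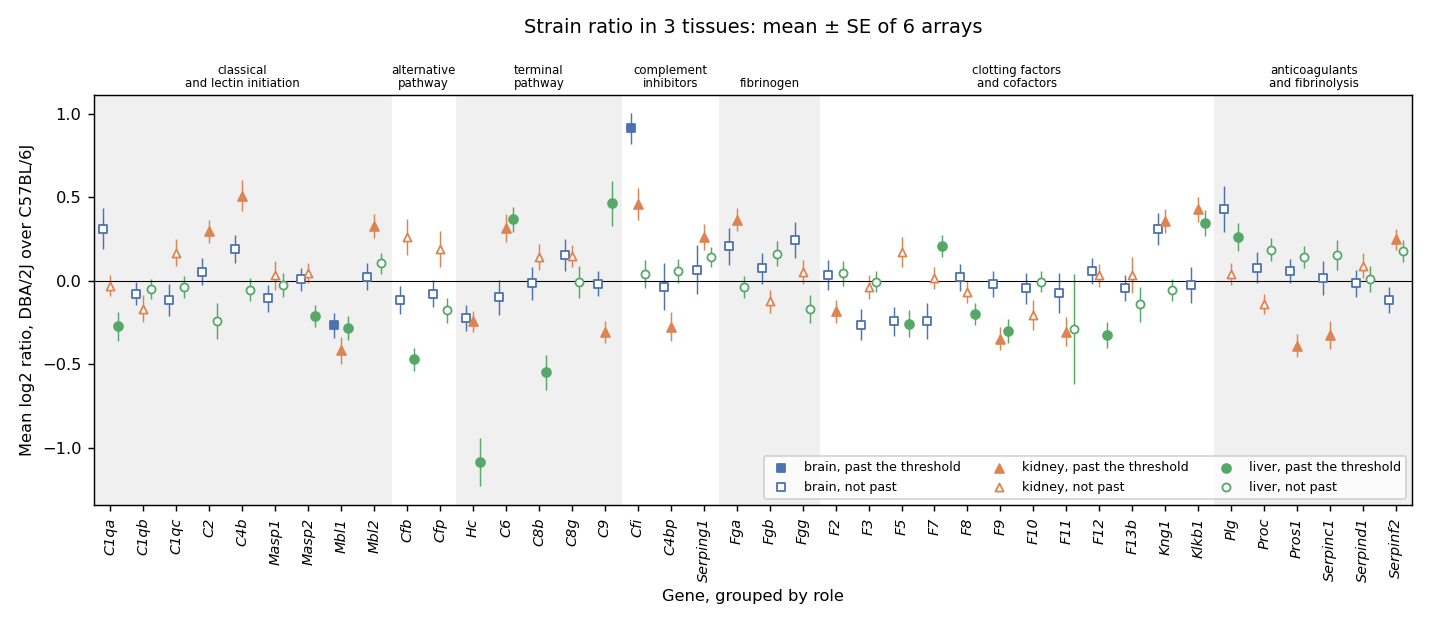
Mean log2 ratio of DBA/2J over C57BL/6J (vertical axis) with its SE over 6 arrays for the 40 members in brain (squares), kidney (triangles) and liver (circles), filled where the adjusted p was under 0.05. Hc in liver (-1.09) and Cfi in brain (0.91) lie farthest from 0, and Mbl1 alone is filled in all 3 tissues.

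The difference between tissues was tested in a fit of all 18 arrays. Between brain and kidney 9 members differed, 3 with a higher ratio in brain and 6 with a lower one, against 22% of all features, 11.4% higher and 10.6% lower. Between brain and liver 8 differed, 5 higher and 3 lower in brain, against 7.73% of all features, 4.42% higher and 3.31% lower. Between kidney and liver 15 differed, 11 higher and 4 lower in kidney, against 17.3% of all features, 9.98% higher and 7.34% lower. The ratio of Cfi was higher in brain than in liver by 0.87 ± 0.14 (SE, limma, adjusted p = 0.000186), and that of Cfb was higher in kidney than in liver by 0.73 ± 0.14 (adjusted p = 0.000539). Pros1 had a lower ratio in kidney than in liver, by -0.53 ± 0.09 (adjusted p = 0.000272), and C2 a higher one, by 0.54 ± 0.13 (adjusted p = 0.00534). C1qa had a higher ratio in brain than in liver, by 0.59 ± 0.14 (adjusted p = 0.0101). These 5 differences passed under every alternative run.

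Members that lie side by side in the genome were not always called together, and the differences between neighbours were not tested. Cfb and C2 are adjacent genes on chromosome 17. In liver Cfb was at -0.47 and passed, while C2 was at -0.24 ± 0.34 and did not, and in kidney C2 passed at 0.30, while Cfb was at 0.26 ± 0.38. F11 and Klkb1 are adjacent on chromosome 8, and in kidney F11 was lower (-0.30) and Klkb1 higher (0.43). The 3 fibrinogen genes are adjacent on chromosome 3, where Fga was past the threshold in kidney (0.37) and Fgb (-0.12) and Fgg (0.05) were not. The 3 C1q genes are adjacent on chromosome 4, and C1qa alone passed in liver. C6 and C9 lie on chromosome 15 with 8 protein-coding genes between them, both higher in liver and of opposite sign in kidney.

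Another 46 genes of the same pathways were measured, 19 of complement and 27 of coagulation, as receptors, regulators, vitamin K enzymes and platelet proteins. In liver 2 complement genes were higher and 2 lower, and 2 coagulation genes were higher and 5 lower, where 10.8% of all features were higher and 12.2% lower. The largest were gamma-glutamyl carboxylase, Ggcx, which modifies vitamin K-dependent clotting factors (-0.79 ± 0.46), the protease inhibitor Tfpi2 (0.54 ± 0.36) and Cpn1, the catalytic chain of carboxypeptidase N, which inactivates anaphylatoxins (0.52 ± 0.14). In kidney 7 complement genes were lower and none was higher, and 8 coagulation genes were higher and 6 lower, where 19.7% of all features were higher and 19.6% lower. Tfpi2 was at -0.96 ± 0.29, Cpn2, the regulatory chain of carboxypeptidase N, at -0.73 ± 0.30 on a spot at percentile 0.427, and the complement regulator Cd46 at -0.52 ± 0.16. In brain 1 complement gene was higher and 3 lower, and 2 coagulation genes were higher and 3 lower, where 7.39% of all features were higher and 6.28% lower. There Cd46 was at 0.67 ± 0.58, the protein C inhibitor Serpina5 at -0.63 ± 0.27 and the platelet glycoprotein Gp5 at 0.57 ± 0.42.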

How the data were processed

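The labels describe 2-colour glass arrays with common RNA pools, 6 hybridisations per tissue. The authors' deposited values are log2 ratios per spot, per the labels quantified with Spot and normalised by print-tip lowess in limma. The sources used here name no versions and no background correction. The values did not look normalised: for the spots used, 100% equalled the log2 of 1 whole number over another (tolerance 1e-12), and array medians ran from -1.65 to 0.16. They were therefore treated as raw.

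Of 23040 spots, 1275 were 0 on every array and were left out. The whole numbers, up to 65535, were recovered from the ratios by continued fractions. Their common factor was estimated from the other arrays of the tissue, with a log2 SD set to 0.4 and a start quantile of 0.75. The factor was 1 for 61.45% of values, against 60.79% for random pairs of whole numbers, and this setting was chosen for that match. Ratios were normalised by print-tip loess (span 0.3, 4 iterations, 48 blocks of 480 spots) in limma 3.58.1 on R 4.3.3.

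Gene names came from the platform annotation, brought up to date with RefSeq GRCm38.p6. It gave 1 symbol to 16642 spots, several to 134 and none to 4989. Spots of a gene were averaged into 20218 features. The mean of 6 arrays was tested against 0 by lmFit and eBayes in each tissue, and tissue contrasts in a fit of 18 arrays, with p-values adjusted over all features by Benjamini-Hochberg and called under 0.05. The steps were tested on simulated data. Array values are given for Hc, its partners in the pore, and members past the threshold with a mean of at least 0.40 in size. Other pathway genes are named when past the threshold with a mean of at least 0.50 in size. The members, lists and rules were chosen with earlier results of these data known. Alternatives were other normalisations, filters on dim or saturated spots, the brightest spot per gene, array weights, a replicate block and each array left out. The labels do not say that replicate numbers pair the arrays. Deviations of same-numbered arrays of different tissues correlated from -0.23 to 0.16, and arrays of different numbers were not compared in this way. The precision is limited by the 6 arrays per tissue, and no counts lie behind the values.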

Additional observations from a re-analysis of the deposited data

Results flagged for a closer look

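In 6 of 120 combinations of a member and a tissue, 1 array stood far from the other 5, where chance alone gives about 1 in 20. In liver these were C4b on array 3 (-0.35), C9 on array 2 (-0.43), F11 on array 5 (-2.78) and F13b on array 5 (0.54). In brain they were Serping1 on array 6 (1.09) and F11 on array 2 (0.67). None was found in kidney.

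The ratio of 5 of 40 members differed between brain and kidney by at least 0.40 (limma contrast, adjusted p under 0.05): C6 (-0.41), Cfi (0.45), F5 (-0.41), Pros1 (0.45) and Klkb1 (-0.45). Of all 20218 features 2750 did so. Among 17 alternatives C6 lost its call in 8 and reversed in 1. The call was lost in 7 for F5, 4 for Cfi, 2 for Klkb1 and 1 for Pros1. Between brain and liver 7 members passed with a difference of at least 0.40, as did 1190 of all features. They were Hc (0.87), C1qa (0.59), C6 (-0.47), C8b (0.53), C9 (-0.48), Cfi (0.87) and F7 (-0.45). Among 17 alternatives the call was lost in 12 for C9, 9 for C6, 6 for C8b, 5 for F7 and 1 for Hc. Between kidney and liver 12 members passed with a difference of at least 0.40, as did 2332 of all features. Those with a higher ratio in kidney were Hc (0.84), C2 (0.54), C4b (0.56), C8b (0.69), Cfb (0.73), Cfi (0.42), F5 (0.43), Fga (0.40) and Kng1 (0.41). Those with a lower ratio in kidney were C9 (-0.77), Pros1 (-0.53) and Serpinc1 (-0.48). Among 17 alternatives the call was lost in 7 for Cfi, 6 for Fga, 5 for F5, 5 for Serpinc1 and 2 for Kng1. It was lost in 1 for C4b and 1 for Hc, and C4b and Fga also reversed in 1 each. Each pair of comparisons shares the arrays of a tissue.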

How the results depend on the processing

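Of 60 single results past the threshold, 20 kept their direction and their side of it under every alternative run. Of 884 alternative values 719 kept both, 160 lost the call and 5 reversed. Reversed without loess were C4b in the kidney and liver difference (-0.17), C6 in kidney (-0.20), C6 in the brain and kidney difference (0.13) and Serpinc1 in kidney (0.13). Against unrestored intensity Fga in the kidney and liver difference reversed (-0.080). The cause was not tested. The count of members past the threshold in brain (2) became 7 without loess (17.5% of all features), 4 with loess against unrestored intensity (12.9%), 6 with 1 loess per array (14.5%) and 7 with array weights (17.7%). In kidney (19) it became 12 among the 13478 brighter features, with 26 members tested. The brain and kidney count (9) became 14 without loess (35.2% of all features). The brain and liver count (8) became 5 against unrestored intensity (4 higher, 1 lower, 3.83% of all features) and 4 with 1 loess per array (3 and 1, 4.23%), and the kidney and liver count (15) became 9 with 1 loess per array (5 and 4, 12.9%). With 1 loess per array the brain and kidney count was 7 (17.0% of all features), 4 higher and 3 lower, against 3 and 6. Without loess the kidney and liver count was 21 (45.9% of all features), 10 higher and 11 lower, against 11 and 4, and the brain and liver count was 6 (4.11%), 2 higher and 4 lower, against 5 and 3. The count of members past the threshold in a single direction in all tissues (1) became 0 with 1 averaged value per tissue. That alternative tests 3 values and has little power.

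Leaving out 1 array at a time, the count ran from 1 to 6 in brain (6.37% to 16.4% of all features). It ran from 18 to 20 in kidney (31.7% to 37.7%) and from 6 to 12 in liver (15.0% to 23.2%). The lowest kidney share came with a count of 20. Between brain and kidney the count ran from 5 to 12 (16.4% to 23.9%), and between kidney and liver from 10 to 15 (13.6% to 17.3%). Between brain and liver it ran from 5 to 8, with a lowest share of 5.89%. In liver the count was 8 without array 1 (15.9% of all features), 6 without array 3 (15.0%) and 8 without array 6 (16.0%). In brain it was 6 without array 1 (16.4% of all features) and 1 without array 3, 4 or 5 (10.2%, 6.37% and 7.28%). Between brain and kidney it was 5 without brain array 2 (17.5% of all features) or kidney array 5 (16.4%). Between brain and liver it was 5 without brain array 4 (6.09% of all features) or without liver array 1, 3 or 6 (6.80%, 5.89% and 6.26%). Without liver arrays 2 and 5 together, an alternative chosen after seeing the data, it was 13 in liver (24.2% of all features). With the replicate block the 3 tissue counts were 9, 9 and 15 (20.6%, 7.01% and 16.1% of all features), and the labels do not say that the numbers pair the arrays. The values used here hold no background measurements, and in brain 21 of 40 members were among the dimmest 7255 spots.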
